A study of Arabidopsis thaliana with 6 samples.

Results

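Treated gun1 gun5 double mutant seedlings were compared with untreated wild type seedlings of Arabidopsis thaliana, to describe which transcripts were lower or higher in mutant seedlings on a bleaching herbicide than in wild type seedlings without it. The arrays were chosen by sample title, 2 for each of these groups, and they are 4 of the 6 arrays of the study; the other two held wild type seedlings on the same herbicide and are given only beside the mutant. The mutant, labelled gun1,gun5, grew on medium with 5 µM norflurazon, and the control was Col-0 without it. In every group the seedlings spent 3 days in darkness and then 3 days in continuous white light at 23 °C, in sealed dishes with 1.5% (w/v) sucrose. They were harvested whole at the stage of open cotyledons, before true leaves emerged. Genotype and treatment both differ between the groups compared, so their parts in any difference cannot be told apart; untreated mutant seedlings were not analysed here. Whether the 2 samples of a group grew in separate dishes or sowings is not stated in the labels, so p-values cover only the scatter among these samples, which may be technical.

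Norflurazon blocks phytoene desaturase in carotenoid synthesis, and chloroplasts without carotenoids are destroyed by light. In wild type plants many nuclear genes for photosynthesis are then turned down, a form of plastid-to-nucleus signalling. The genomes uncoupled (gun) mutants were isolated because such genes stay more active in them: GUN1 is a plastid pentatricopeptide repeat protein and GUN5 the H subunit of magnesium chelatase, an enzyme of chlorophyll synthesis. The signals of GUN1 and GUN5 themselves are not analysed here, so the genotype was not checked by them. A photosystem or ribosome of the plastid is built from subunits of nuclear and plastid genes, and the results below follow that division.

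Within the control pair the log2 difference had a standard deviation of 0.214 across the 13648 tested probe sets. It was wider within the mutant pair, at 0.383, and within the treated wild type pair, at 0.50. The ratio of 3′ to 5′ actin signal, a sign of RNA quality, was 2.46 and 2.78 in the control and 2.00 and 3.21 in the mutant. In the treated wild type it was 1.647 and 3.635. The same ratio for GAPDH was 1.003 and 0.952 in the control and 1.128 and 1.206 in the mutant, both mutant arrays above both control arrays. In the treated wild type the GAPDH ratio was 1.023 and 1.175. A control probe set that matches 25S ribosomal RNA read 15.2 and 11.1 in the control, 115.6 and 21 in the mutant, and 2511.1 and 8.2 in the treated wild type. It was thus high on replicate 1 of each treated group. Its part, and that of RNA quality, in the results below was not tested. In whole seedlings, fewer cells of a type and less RNA per cell cannot be told apart. None of the 4 tested root markers had an adjusted p below 0.05 in limma, and 3 lay below the control. Their summed signals were 3928 and 3610 in the control and 3738 and 3775 in the mutant. The lists for other cell types had 1 tested member each: STOMAGEN, a signal peptide of stomatal development made in the mesophyll, fell by 0.90 on the log2 scale (adjusted p = 0.0235), and the seed storage gene PAP85 rose by 0.92 (adjusted p = 0.0167). The call of STOMAGEN was lost without any 1 of the 4 arrays (adjusted p from 0.0980 to 0.150). That of PAP85 was lost without mutant replicate 1 or either control array (adjusted p = 0.0936, 0.0783 and 0.144).

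In the treated mutant 1162 of the 13648 probe sets (8.51%) were above the untreated wild type and 1463 (10.7%) below it, at an adjusted p below 0.05 from limma. Differences of at least 2-fold were seen for 329 (2.41%) of these rises and 689 (5.05%) of these falls. Each difference is on the log2(signal + 16) scale, which shrinks the change of dim genes, and over all tested probe sets its median was 0.01, with a 5th percentile of -1.02 and a 95th of 0.86. The arrays of the groups did not overlap for 68.3% of the tested probe sets, so that a lack of overlap alone is common here. The shares of 8.51% and 10.7% are the background for counts of called members in the lists below. Between the treated genotypes 1.75% of all probe sets were higher in the mutant and 1.08% lower. Leaving out 1 array leaves its group with 1 array, which is then assumed to vary like the other groups. The count of rises was 88 and 98 without control replicates 1 and 2, and 492 and 300 without mutant replicates 1 and 2. For falls the corresponding counts were 364, 372, 860 and 634. Without treated wild type replicate 1 or 2, which enter this comparison only through the shared estimate of spread, 1965 and 1946 rose.

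**Figure D1:**
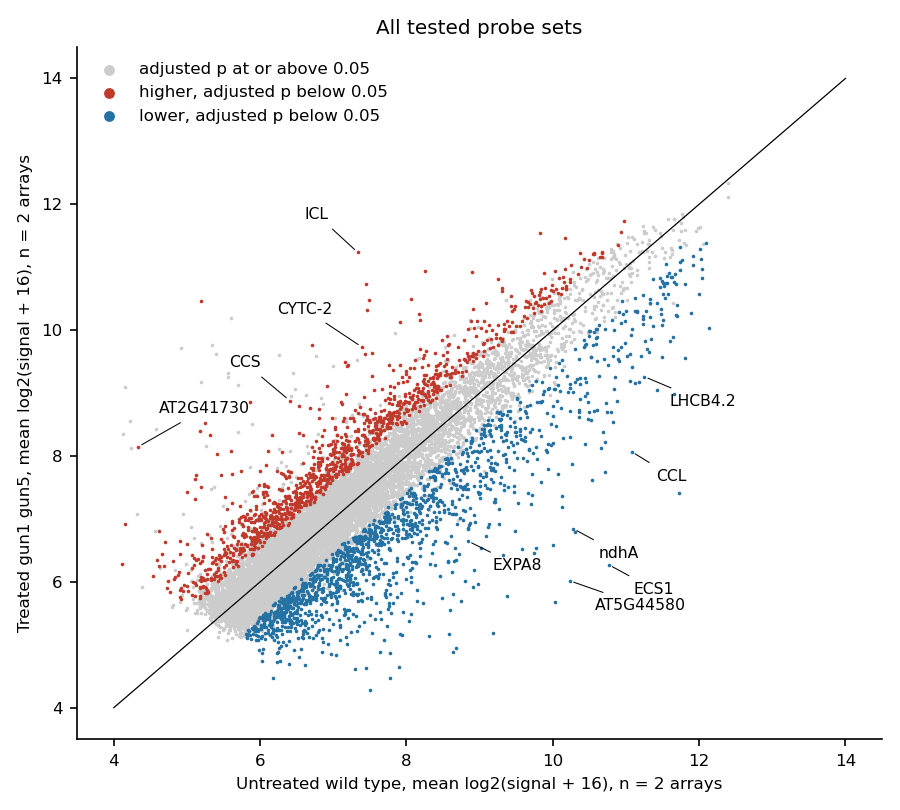
Mean log2(signal + 16) of the 2 untreated wild type arrays (x axis) and the 2 treated gun1 gun5 arrays (y axis) for each of the 13648 tested probe sets; the line marks equal values and colours mark adjusted p below 0.05. Falls reach further from the line than rises among bright genes, with ECS1 and AT5G44580 farthest below it among probe sets that name 1 gene, and ICL among the bright genes above it.

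Among probe sets that name 1 gene, the 2 largest falls on the log2(signal + 16) scale were in genes that are not part of the photosynthetic apparatus; with a constant of 1, AT5G50335 fell further (-4.86) than both (ECS1 -4.79, AT5G44580 -4.58). ECS1 (AT1G31580), which encodes a cell wall protein, had signals of 1628.3 and 1825.3 in the control against 69.1 and 54.1 in the mutant, a signal ratio of 28.0 between the group means. Its log2 difference was -4.49 ± 0.19 (SE, adjusted p = 4.40e-05). AT5G44580 went from 1177.0 and 1198.0 to 52.7 and 44.9, a log2 difference of -4.22 ± 0.17 (SE, adjusted p = 4.40e-05). In both genes the gap between the groups was far beyond the gap within a pair. The same genes read 224.5 and 178.2, and 159.6 and 135.1, in the treated wild type. The mutant lay below the treated wild type by -1.48 (adjusted p = 0.00844) for ECS1 and by -1.33 (adjusted p = 0.00844) for AT5G44580.

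CCL (AT3G26740), whose unstable messenger is under control of the clock, fell from 1972.6 and 2330.4 to 290.4 and 219.1 (log2 difference -3.01 ± 0.18 SE, adjusted p = 0.000191). The treated wild type read 229.1 and 213.5, close to the mutant. AT4G33550 went from 381.2 and 355.5 to 18.9 and 21.5, and AT2G25510 from 877.5 and 837.9 to 82.1 and 71.6, with log2 differences of -3.41 and -3.24. For AT5G50335 the control arrays read 164.9 and 250.6, the mutant arrays 7.8 and 4.6, and the treated wild type arrays 69.4 and 45.2, so no groups overlapped. AT5G62280 (-3.22) and AT1G73120 (-3.05) complete the nuclear genes among the 12 largest falls on the scale with the constant of 16. AT1G73120 was called neither without mutant replicate 1 (adjusted p = 0.0504) nor without control replicate 1 or 2 (adjusted p = 0.0625 and 0.0870). The remaining 4 of the 12 were the plastid transcripts ndhA, atpF, atpH and psaA.

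All 3 tested antenna protein genes, LHCB4.1, LHCB4.2 and LHCB4.3, which encode the CP29 protein of photosystem II, fell, with a list median of -1.60. The list holds only these 3 loci, which have a named probe set, so it does not stand for antenna genes in general. The mutant was above the treated wild type past the threshold for 2 of the 3. LHCB4.2 (AT3G08940) read 2596.2 and 2249.6 on the control arrays, 723.1 and 494.0 on the mutant arrays, and 200.5 and 80.4 on the treated wild type arrays. The 3 groups stood apart in that order. The mutant differed from the control by -1.99 ± 0.36 (SE, adjusted p = 0.00911) and from the treated wild type by 2.09 (adjusted p = 0.0266). LHCB4.1 kept more of its signal, with 3611.6 and 3219.6 in the control against 2271.5 and 2024.6 in the mutant (log2 difference -0.67, adjusted p = 0.0133). LHCB4.3 read 468.9 and 528.6 in the control and 166.2 and 141.4 in the mutant, a difference of -1.60, and its mutant level did not differ from the treated wild type past the threshold. Of the antenna genes 3 were called without mutant replicate 1, and 1 without each of mutant replicate 2 and control replicates 1 and 2.

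All 5 tested nuclear genes of the photosystems and the ATP synthase fell, with a median of -0.97. The same genes had a median of -2.11 in the treated wild type against the same control arrays. This list holds only the 5 loci with a named probe set, so it does not stand for all nuclear genes of these complexes. PSAE-1, a stromal subunit of photosystem I, read 3392.6 and 2388.8 in the control against 1373.4 and 1055.8 in the mutant, and 308.9 and 148.6 in the treated wild type. The mutant lay 1.23 below the control (log2 difference -1.23 ± 0.32 SE, adjusted p = 0.0342) and 2.40 above the treated wild type (adjusted p = 0.0107). PSAN, on the lumen side of photosystem I, differed from the control by -1.16 (adjusted p = 0.00608). ATPC1, the gamma subunit of the ATP synthase, differed by -0.97, PSBY by -0.82 and PSBW by -0.64, the last 2 being small photosystem II proteins. The mutant was above the treated wild type in 4 of the 5, PSBW (0.61) being the exception; over all probe sets 1.75% were higher in that comparison. None of the 5 passed without control replicate 1 or control replicate 2, and 3 and 2 passed without mutant replicates 1 and 2; the medians of these 4 fits ran from -0.85 to -1.13.

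Of 4 tested Calvin cycle genes 3 fell, and the mutant was above the treated wild type for 4. Sedoheptulose bisphosphatase SBPASE read 2234.6 and 2007.6 in the control, 809.5 and 739.7 in the mutant and 274.1 and 291.3 in the treated wild type. It differed from the control by -1.43 ± 0.15 (SE, adjusted p = 0.00105). Phosphoribulokinase PRK differed by -1.30 (adjusted p = 0.00430) and the phosphoglycerate kinase gene AT1G56190 by -0.74 (adjusted p = 0.0476). Rubisco activase RCA, at 3798.8 and 3410.1 in the control and 2649.4 and 2523.8 in the mutant, missed the threshold (-0.47, adjusted p = 0.0594). In photorespiration 3 of 4 genes fell: the glycine decarboxylase subunit genes AT1G11860 (-1.49) and AT1G32470 (-1.40) and hydroxypyruvate reductase HPR (-0.95). The fourth, the glycerate kinase gene AT1G80380, lay at 0.23 (adjusted p = 0.313). For the Calvin cycle 3 calls became 2 without either mutant array and 1 without either control array; for photorespiration they became 3, 1, 0 and 1 without mutant replicates 1 and 2 and control replicates 1 and 2.

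**Figure D2:**
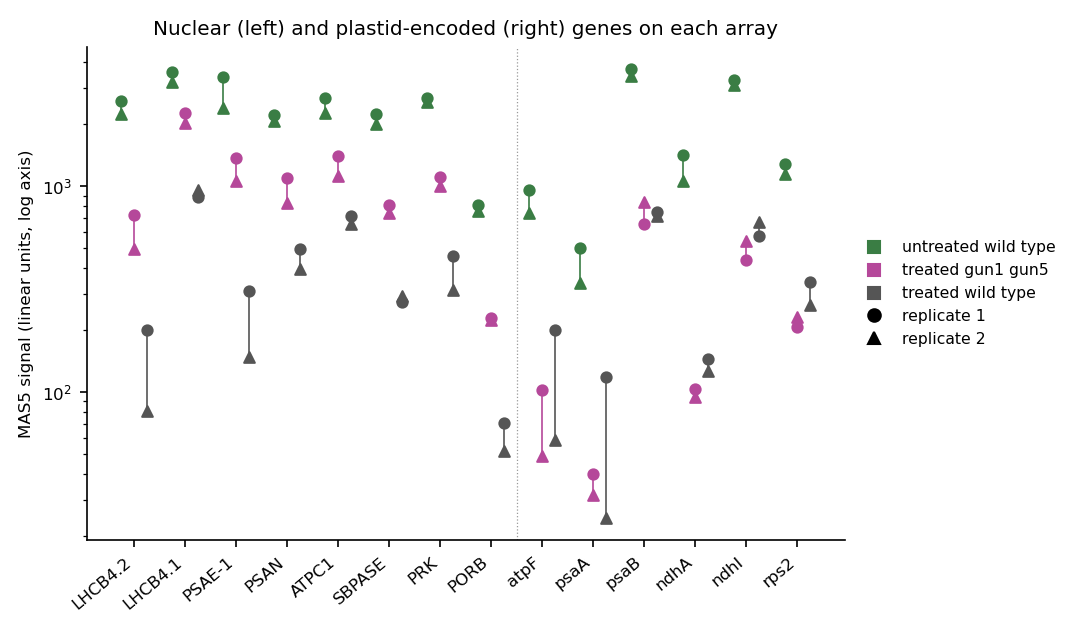
MAS5 signal on each of the 6 arrays (log axis) for 8 nuclear genes, left of the dotted line, and 6 plastid-encoded genes, right of it; circles are replicate 1 and triangles replicate 2, and a line joins the 2 arrays of a group. For the nuclear genes the treated mutant lies between the untreated and the treated wild type, as for PORB at 228.1 and 223.0; for the plastid genes it overlaps the treated wild type or lies below it, as for ndhA at 103.2 and 94.7.

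PORB, CHLI2 and CHLM, which act in chlorophyll synthesis, were the genes of the tetrapyrrole pathway that fell. Of 9 tested genes, out of 12 with a named probe set, 3 fell and none rose, with a median of -0.18. The light-dependent protochlorophyllide reductase gene PORB read 810.3 and 761.6 in the control, 228.1 and 223.0 in the mutant and 70.3 and 51.8 in the treated wild type (mutant against control -1.73 ± 0.18 SE, adjusted p = 0.00105). The magnesium chelatase subunit gene CHLI2 differed from the control by -0.81 (adjusted p = 0.0173). CHLM, the magnesium protoporphyrin methyltransferase, differed by -0.78 (adjusted p = 0.0153). Earlier steps did not pass: HEMA2 (0.27, adjusted p = 0.342), GSA1 (0.18, adjusted p = 0.514) and HEMB1 (0.01, adjusted p = 0.972). The geranylgeranyl reductase gene AT1G74470 read 1916.5 and 1717.2 in the control and 1596.1 and 1724.5 in the mutant (-0.13, adjusted p = 0.674), and 955.1 and 651.4 in the treated wild type, below the mutant (difference 1.06, adjusted p = 0.0313). The 3 falls held without mutant replicate 1, and 1 was left without mutant replicate 2 or either control array. Of 2 tested carotenoid genes, lycopene cyclase LYC (-0.25, adjusted p = 0.291) and Z-ISO (0.39, adjusted p = 0.162), neither passed.

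Nuclear subunits of the NDH complex, which cycles electrons around photosystem I, and assembly factors of the photosystems gave 12 falls and no rise among 27 tested genes, with a median of -0.51. NdhL read 780.5 and 866.4 in the control, 174.2 and 130.1 in the mutant and 78.7 and 70.7 in the treated wild type. It differed from the control by -2.33 ± 0.19 (SE, adjusted p = 0.000515), and NdhN by -1.59 (adjusted p = 0.00214). AT1G51400, a small photosystem II protein gene, read 2134.2 and 2150.8 in the control and 656.9 and 671.0 in the mutant. AT1G49975 stood out from the list because its mutant signals of 56.4 and 45.6 lay as low as those of the treated wild type, 62.3 and 50.7. Assembly factors such as LPA1 (-0.02), LPA2 (0.07) and the light-harvesting-like gene LIL3:1 (0.02) did not differ past the threshold. The mutant exceeded the treated wild type for 9 of the 27 genes, among them the thylakoid calcium-sensing protein gene CaS (1.63, adjusted p = 0.00396). Over all probe sets 1.75% were higher in that comparison. The 12 falls were 7 and 6 without mutant replicates 1 and 2, and 4 and 6 without control replicates 1 and 2.

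Nuclear genes for plastid ribosomal proteins differed from the control by small amounts in the mutant, and 6 of the 7 tested lay below it. Their summed signal was 9100 and 8553 in the control and 8051 and 7235 in the mutant. None of the 7 tested genes passed the test in limma (1 at an unadjusted p below 0.05), and their log2 differences ran from -0.40 to 0.13 with a median of -0.23. AT1G29070, a large-subunit protein gene, read 1490.9 and 1489.3 in the control and 1348.7 and 1285.4 in the mutant. The treated wild type arrays read 731.9 and 729.4, below all 4 of the others, and the mutant was higher by 0.84 (adjusted p = 0.0183). In the treated wild type 6 of the 7 fell against the same control arrays (10.3% of all probe sets fell in that comparison), with a median of -0.77. The mutant passed the test against the treated wild type for 2 of the 7. Among 12 organelle RNA processing factors, CRR42, needed for the NDH complex, fell from 135.2 and 140.0 to 28.3 and 29.0 (-1.78, adjusted p = 0.000797) and the editing factor OTP81 rose by 0.85 (adjusted p = 0.0148). OTP81 was not called without any 1 of the 4 arrays. Of 10 genes for plastid import, chaperones and division, FTSZ2-2 fell by 0.56 (adjusted p = 0.0381) and ATOEP16-4 rose by 0.57 (adjusted p = 0.0401), and neither was called without any 1 of the 4 arrays.

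**Figure D3:**
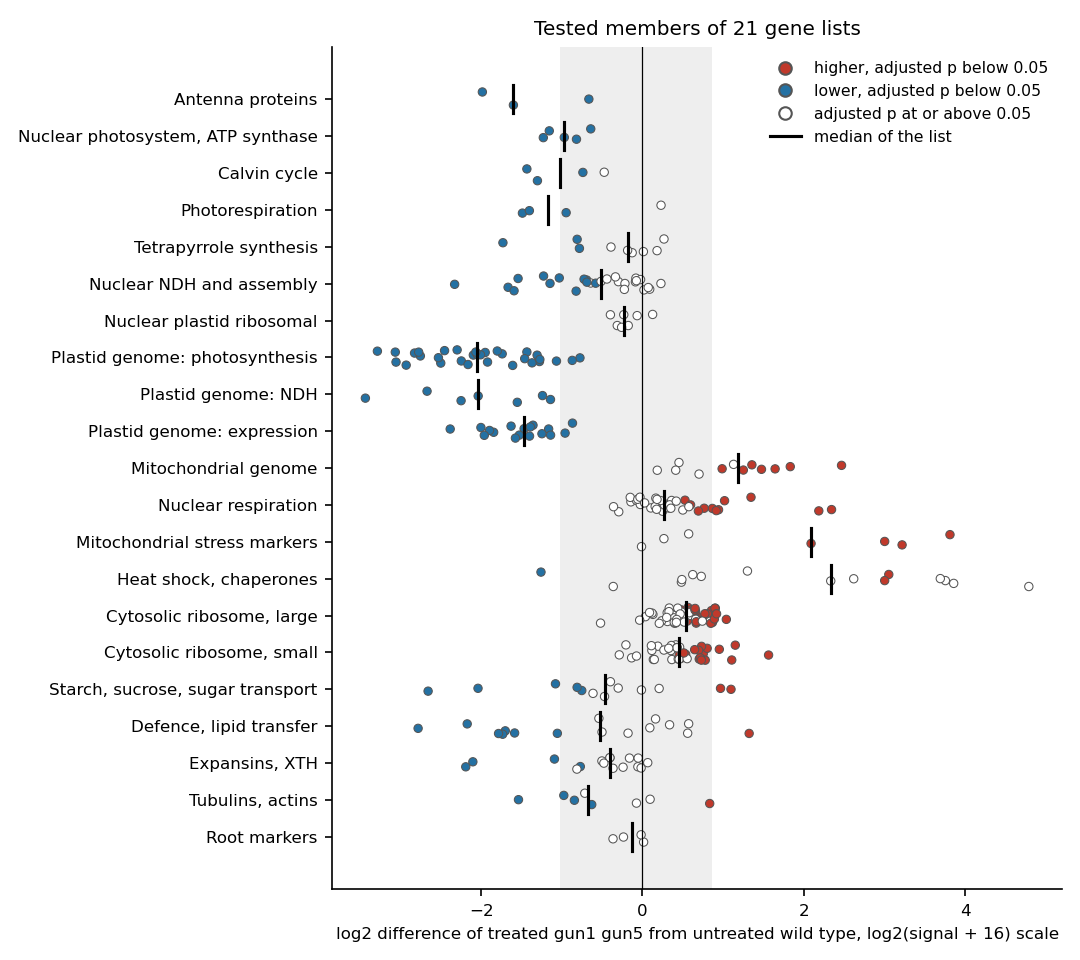
Log2 difference of the treated mutant from the untreated wild type (x axis) for each tested member of 21 gene lists; filled points passed an adjusted p of 0.05, the black bar is the list median and the grey band runs from the 5th (-1.02) to the 95th (0.86) percentile of all tested probe sets. Lists of the plastid genome lie left of 0 with medians of -2.05, -2.04 and -1.47, and the list of the mitochondrial genome lies right of it with a median of 1.19.

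Transcripts of the plastid genome were lower in the treated mutant throughout 3 lists. A probe set bright only in the control can pass the filter through it, so the counts describe the tested members: 31 of 33 named photosynthesis transcripts, 7 of 10 NDH transcripts and 17 of 19 for the plastid polymerase and ribosome. Each tested member of these 3 lists fell. The photosynthesis list had a median of -2.05, a highest value of -0.78 (petB) and a lowest of -3.29 (atpF). Its summed signal was 48558.6 and 41156.2 in the control against 12108.1 and 13620.8 in the mutant. In contrast to the nuclear genes the mutant did not exceed the treated wild type, whose sums were 15196.7 and 15189.0; no member of this list differed between the treated genotypes past the threshold in limma, the smallest adjusted p being that of rbcL at 0.0764.

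The members varied in depth of loss. The ATP synthase gene atpF read 956.4 and 737.5 in the control, 102.5 and 48.8 in the mutant and 200.1 and 58.4 in the treated wild type, and the photosystem I core gene psaA 501.6 and 339.2, 39.9 and 31.5, and 118.5 and 24.5. For psaA the mutant arrays lay between the 2 treated wild type arrays. The other core gene, psaB, read 3699.5 and 3446.6 in the control and 653.7 and 836.9 in the mutant (-2.25 ± 0.16 SE, adjusted p = 0.000338). The cytochrome complex genes petB, from 3512.5 and 3295.5 to 1796.5 and 2184.1, and petD (-0.87) were the least lowered. rbcL, the large subunit of Rubisco, went from 245.9 and 167.4 to 77.8 and 71.1 (-1.28, adjusted p = 0.00579). In the treated wild type rbcL read 153.3 and 142.5, with no call against the control (-0.42).

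Among the plastid NDH transcripts ndhA fell from 1414.9 and 1065.0 to 103.2 and 94.7 (-3.44 ± 0.19 SE, adjusted p = 0.000118) and ndhI by 2.67 on the log2 scale. Against the treated wild type, the log2 differences of the 7 tested NDH transcripts ran from -0.94 to -0.34, and only ndhJ passed the threshold. It read 514.0 and 465.3 in the control, 148.1 and 164.5 in the mutant, and 288.7 and 341.9 in the treated wild type. Its mutant minus treated wild type difference was -0.94 (adjusted p = 0.0309), and 1.08% of all probe sets were lower in that comparison. The ribosomal protein gene rps2 went from 1278.3 and 1143.9 to 206.5 and 231.2 (-2.39, adjusted p = 0.000423). rpoC1, a subunit of the plastid-encoded RNA polymerase, went from 1514.8 and 1470.4 to 331.1 and 491.1 (-1.85), and rpoA by -1.40. Of 7 other plastid genes 6 fell, including ccsA (-2.38), for cytochrome c assembly, and accD (-1.93), for fatty acid synthesis, and matK missed the threshold (-0.56, adjusted p = 0.0522). The median of the photosynthesis list was -1.96 without mutant replicate 1, the mutant array with more 25S ribosomal RNA signal, and -2.06 without mutant replicate 2. Of the 31 calls 27 were made without either mutant array, 20 without control replicate 1 and 25 without control replicate 2. Of the 17 calls for expression genes, 12, 15, 9 and 10 were made in the same 4 fits.

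All 12 tested transcripts of the mitochondrial genome, out of 16 named, lay above the control, with a median of 1.19. Of these 7 rose and none fell, where 8.51% of all probe sets rose. A transcript dim in the control can pass the filter through the treated arrays, so the counts describe the tested members. The respiratory subunit genes nad6 (NADH dehydrogenase) and cox1 (cytochrome oxidase) rose by 2.47 (adjusted p = 0.0366) and 1.48 (adjusted p = 0.0238). On nad6 the arrays read 34 and 31.2 in the control, 511.3 and 121.2 in the mutant and 130.4 and 30.7 in the treated wild type. For cox1 they read 95.7 and 101.3, 458.8 and 197.5, and 176.2 and 125.1. Replicate 1 of the mutant was the higher mutant array in both cases, as it was for the 25S ribosomal RNA probe set. Another probe set of nad5 gave 2.53 (adjusted p = 0.0129) against 1.83 for the listed one. Without mutant replicate 1 the list had 1 call and a median of 0.75, against 7 calls and a median of 1.60 without mutant replicate 2; there was 1 call without control replicate 1 and none without control replicate 2. In the treated wild type 1 of the 12 rose against the same control arrays, with a median of 0.54. The mutant and the treated wild type did not differ past the threshold for any of the 12. Col-0 also carries a large insertion of mitochondrial DNA in its nuclear genome, and these probe sets do not separate the copies.

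Nuclear genes for respiration rose in part. Of 37 tested genes 11 rose and none fell, and the median was 0.27, where 8.51% of all probe sets rose and 10.7% fell. In the treated wild type 10 rose (9.01% of all probe sets rose in that comparison). Cytochrome c is encoded by CYTC-1 and CYTC-2. CYTC-2 read 149.6 and 153.5 in the control, 755.6 and 922.7 in the mutant and 828.8 and 719.1 in the treated wild type, a mutant log2 difference of 2.35 ± 0.17 (SE, adjusted p = 0.000379); CYTC-1 rose by 0.87 (adjusted p = 0.00576). The treated groups overlapped for CYTC-2, and neither overlapped the control. SDH2-1, the iron-sulphur subunit of succinate dehydrogenase, went from 517.6 and 535.4 to 1151.7 and 1611.7 (1.35, adjusted p = 0.0176). The complex III subunit gene AT5G25450 rose by 2.19 (adjusted p = 0.0437), with 1195.2 on mutant replicate 1 and 497.8 on mutant replicate 2. The 11 rises were 5 and 3 without mutant replicates 1 and 2 and 2 and 1 without control replicates 1 and 2. In the citrate cycle 3 of 11 rose, SDH2-1 and SDH1-1 among them, and the list median was 0.55; without mutant replicate 1 there was 1 call, and in the other 3 such fits none.

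Markers known to rise when mitochondria are impaired were among the largest rises. AT2G04050, a MATE-type efflux carrier gene, read 18.0 and 22.4 in the control, 343.2 and 299.7 in the mutant and 282.5 and 502.6 in the treated wild type (mutant 3.22 ± 0.26 SE, adjusted p = 0.000526). AT2G41730 read 2.1 and 6.4 against 245.1 and 291.2 (3.81, adjusted p = 0.000276). AT2G21640 (2.09) and the mitochondrial small heat shock protein gene AT5G51440 (3.00) also rose. This made 4 rises and no fall among 7 tested markers, out of 9 named, where 8.51% of all probe sets rose. A marker dim in the control can pass the filter through the treated arrays. The control signals of AT2G04050 and AT2G41730 lay below the filter signal of 28.2, so the count describes the tested members only. NDB2, an alternative NADH dehydrogenase, did not pass (-0.01, adjusted p = 0.975). The size of such changes depends on the constant added before the logarithm where the control is dim: AT2G41730 had a difference of 5.81 with a constant of 1 and 2.28 with 64, past the threshold in each case. AT5G51440 lost its call without any 1 of the 4 arrays (adjusted p from 0.0641 to 0.166).

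Heat shock genes gave large differences, with mutant replicate 1 far above mutant replicate 2. The median over 15 tested genes was 2.33, and 2 rose and 1 fell. AT1G53540, a cytosolic small heat shock protein gene, read 14.7 and 14 in the control, 3036.0 and 215.5 in the mutant and 2739.2 and 18.6 in the treated wild type. Its log2 difference of 4.79 did not pass (adjusted p = 0.110). AT2G29500 (34.1 and 28.6 in the control, 2089.6 and 178.0 in the mutant) and ATHSP22.0 (30.8 and 31.6, 2504.6 and 132.1) did not pass either, with adjusted p = 0.144 and 0.175. Summed over the list the signal was 1004 and 1075 in the control, 14306 and 2637 in the mutant and 17449 and 1617 in the treated wild type, so replicate 1 was the high array of both treated groups, as for the 25S ribosomal RNA probe set. Fes1A, a nucleotide exchange factor of HSP70, rose by 3.06 (adjusted p = 0.0213) with 1446.4 and 504.0 in the mutant against 78.4 and 100.6. Its relative Fes1B fell from 120.1 and 142.3 to 51.4 and 39.8 (-1.26, adjusted p = 0.00381). Without mutant replicate 1 no member rose and the median was 1.38, without mutant replicate 2 it was 3.29 with 1 rise, and without either control array there was no rise; Fes1B was not called without control replicate 2. Without treated wild type replicate 1 or 2, whose spread enters the test, 12 members rose.

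**Figure D4:**
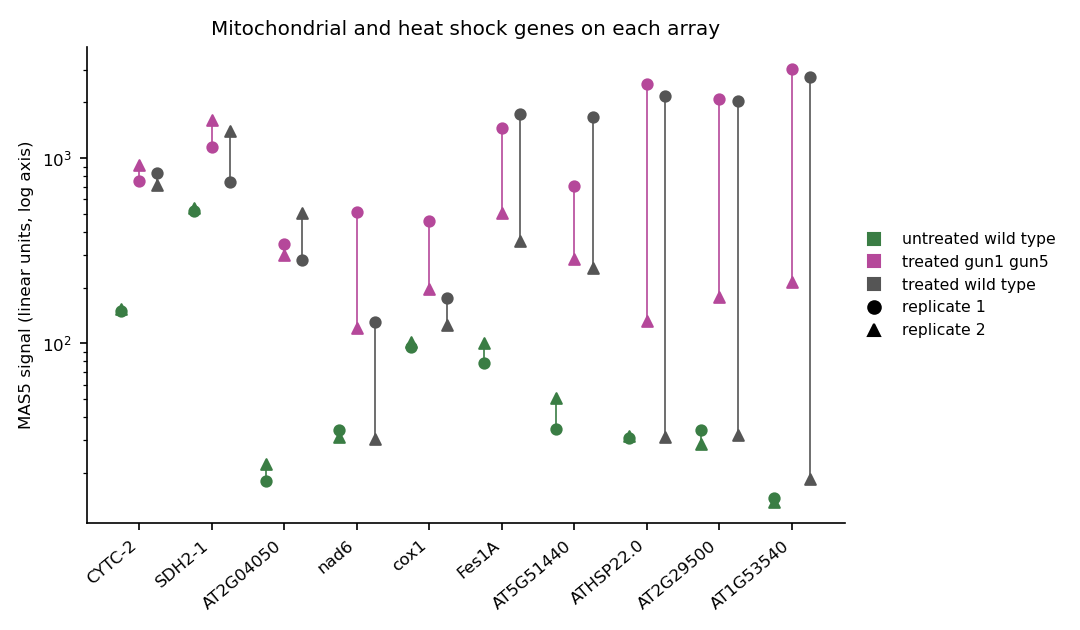
MAS5 signal on each of the 6 arrays (log axis) for 10 mitochondrial, respiratory and heat shock genes; circles are replicate 1, triangles replicate 2, and a line joins the 2 arrays of a group. CYTC-2 and AT2G04050 are high on all 4 treated arrays, whereas AT1G53540 is at 3036.0 and 2739.2 on replicate 1 of the treated groups and at 215.5 and 18.6 on replicate 2.

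ICL, isocitrate lyase of the glyoxylate cycle, by which seedlings turn stored fat into sugar, was high on all treated arrays. It read 137.2 and 153.8 in the control, 1280.8 and 4466.2 in the mutant and 2030.3 and 1670.5 in the treated wild type. Every treated array lay above both control arrays, and the mutant arrays differed widely from each other. The log2 difference was 3.90 ± 0.48 (SE, adjusted p = 0.00213), and it stayed past the threshold without any 1 of the 4 arrays, between 3.01 and 4.80. The other 2 tested genes of fat breakdown did not pass (SDP1 0.35, AIM1 -0.06). Of 10 genes for amino acid breakdown and starvation, MCCA rose by 0.69 (adjusted p = 0.0360), and it was not called without any 1 of the 4 arrays; none of 10 autophagy genes passed in limma, with 0 at an unadjusted p below 0.05. Among the other large rises, AT4G34950, of the major facilitator family, went from 96.9 and 164.6 to 772.8 and 635.8 (2.33). The ACC oxidase family gene AT1G12010 went from 19.1 and 22.2 to 159.4 and 171.8 (2.31). AT4G39675 (2.25, adjusted p = 0.0389) read 307.4 and 1492.5 in the mutant, and lost its call without mutant replicate 2 (adjusted p = 0.0860) or either control array (adjusted p = 0.138 and 0.201).

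Part of the genes for cytosolic ribosomal proteins rose, by small amounts. Of 74 tested large-subunit genes 38 rose and none fell, with a median of 0.54. Of 42 small-subunit genes 18 rose and none fell, with a median of 0.46. Over all probe sets the median was 0.01, and 8.51% rose and 10.7% fell. AT4G39200 (S25 family) had the largest rise, from 607.4 and 576.1 to 2069.7 and 1531.7 (1.56 ± 0.18 SE, adjusted p = 0.00180), and read 2070.8 and 1690.0 in the treated wild type. AT3G57490 went from 96.4 and 98.3 to 244.2 and 227.4 (1.15). In the large subunit AT2G20450 read 166.0 and 162.7 against 369.2 and 340.8 (1.04, adjusted p = 0.0102). The summed signal of the large-subunit list was 51180.9 and 49952.5 in the control and 76460.2 and 74391.2 in the mutant, so the arrays of the groups did not overlap. Few single genes kept their call with fewer arrays: the large-subunit count was 9 and 5 without mutant replicates 1 and 2 and 1 without either control array, while the median lay between 0.48 and 0.57; for the small subunit the counts were 6, 5, 1 and 1, with medians between 0.42 and 0.51. Several of these genes have close paralogues, between which a probe set may not separate. No member of either list differed between the treated genotypes in limma.

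Antioxidant genes moved in both directions. CCS, the copper chaperone that loads copper/zinc superoxide dismutases, read 63.5 and 73.9 in the control, 444.6 and 466.8 in the mutant and 380.3 and 328.5 in the treated wild type (mutant 2.48 ± 0.17 SE, adjusted p = 0.000290). The thylakoid ascorbate peroxidase TAPX went from 303.2 and 252.8 to 84.7 and 82.6 (-1.56, adjusted p = 0.00190), while the stromal form SAPX rose from 155.1 and 172.5 to 404.4 and 315.0 (1.06, adjusted p = 0.00956). The glutathione reductase gene GR1 rose by 1.18 (adjusted p = 0.0103). These are the 3 rises and 1 fall among 8 tested genes; CCS and TAPX kept their calls without any 1 of the 4 arrays, and the count of rises was 2 without either mutant array and 1 without either control array. Of 9 glutathione S-transferase genes GSTL3 fell by 0.84 (adjusted p = 0.0151) and GSTU20 by 1.02 (adjusted p = 0.0416). GSTL3 kept its call without mutant replicate 1 (adjusted p = 0.0368) and lost it without any 1 of the other 3 arrays, and GSTU20 lost it without any 1 of the 4 (adjusted p from 0.0515 to 0.218).

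In sugar metabolism 5 of 13 tested genes fell and 2 rose, out of 28 with a named probe set. The sucrose phosphate synthase gene ATSPS4F read 264.2 and 231.5 in the control, 26.3 and 25.1 in the mutant and 21.2 and 11.2 in the treated wild type (mutant -2.66 ± 0.19 SE, adjusted p = 0.000379). SAG29, a SWEET-type sugar transporter also called SWEET15, fell from 166.2 and 110.4 to 22.9 and 19.0 (-2.04). The starch enzymes SBE2.2 (-1.08), DPE1 (-0.81) and PWD (-0.75) fell as well. The vacuolar transporter SWEET17 (0.97) and SWEET2 (1.10) rose. The 5 falls were 3 without either mutant array and 2 without either control array, and the 2 rises were 1 without mutant replicate 1 and none in the other 3 fits. ATSPS4F and SAG29 were called in all 4. None of the 13 differed between the treated genotypes in limma.

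Of 16 tested expansin and xyloglucan endotransglucosylase/hydrolase genes, which loosen or remodel the wall of growing cells, 4 fell and none rose. EXPA8 read 415.3 and 470.8 in the control, 91.4 and 77.6 in the mutant and 446.8 and 299.2 in the treated wild type. Only the mutant arrays were low. It differed from the control by -2.19 ± 0.22 (SE, adjusted p = 0.000999) and from the treated wild type by -1.93 (adjusted p = 0.00600). XTH19 read 532.0 and 675.0, 236.6 and 65.1, and 521.2 and 460.9 in the same order (-2.10 from the control, adjusted p = 0.0169), and missed the threshold against the treated wild type (-1.82, adjusted p = 0.0865). The wall protein gene AT4G32460, of the DUF642 family, read 798.3 and 846.6, 189.3 and 199.6, and 818.1 and 683.2. DRT100 read 517.9 and 564.7, 128.3 and 85.6, and 522.4 and 459.1. Their mutant differences were -1.99 and -2.20 from the control and -1.86 (adjusted p = 0.00232) and -2.06 (adjusted p = 0.00371) from the treated wild type. These genes were chosen partly for being low in the mutant against the treated wild type. The 4 expansin and xyloglucan falls were 5 and 3 without mutant replicates 1 and 2, and 1 without either control array; EXPA8, AT4G32460 and DRT100 were called in all 4 of those fits, and XTH19 was not called without control replicate 1 (adjusted p = 0.0897) or 2 (adjusted p = 0.122).

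**Figure D5:**
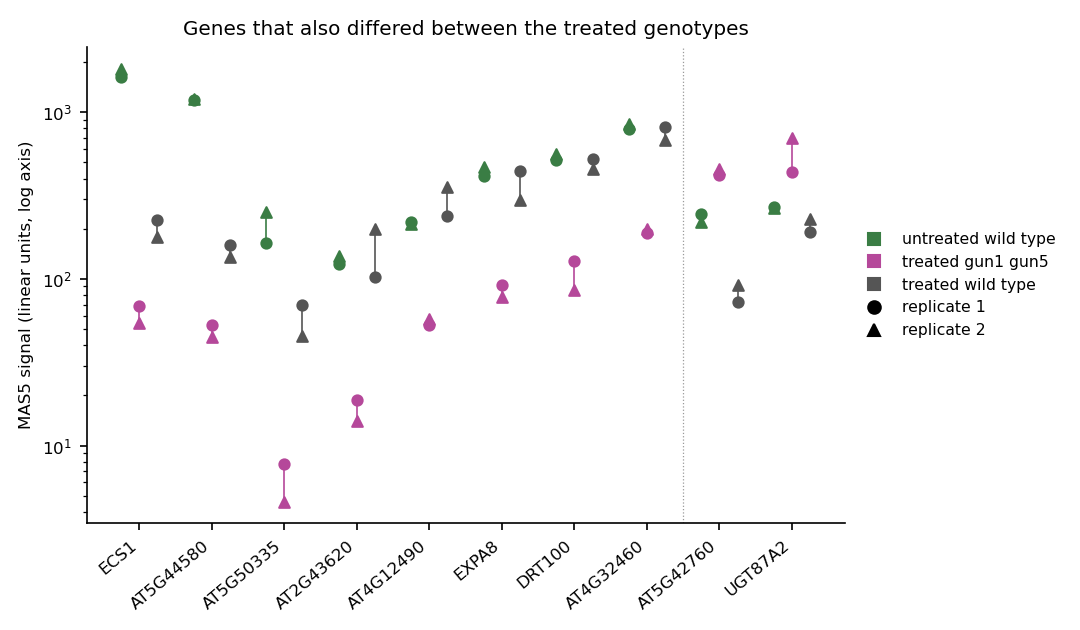
MAS5 signal on each of the 6 arrays (log axis) for 10 genes whose treated mutant arrays differed from both the untreated and the treated wild type; circles are replicate 1, triangles replicate 2, and a line joins the 2 arrays of a group. Left of the dotted line the mutant is lowest, as for EXPA8 at 91.4 and 77.6, and right of it the mutant is highest, as for AT5G42760 at 421.5 and 454.6.

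Among 16 tested defence and lipid transfer genes 7 fell and 1 rose, with a median of -0.52. The chitinase family gene AT2G43620 read 123.0 and 137.0 in the control, 18.7 and 14.1 in the mutant and 102.2 and 199.8 in the treated wild type (mutant -2.17 from the control, adjusted p = 0.00230, and -2.31 from the treated wild type, adjusted p = 0.00623). AT4G12490, of the lipid transfer protein family, read 219.0 and 212.1, 52.9 and 57.5, and 239.8 and 353.8, and its neighbour in the family AT4G12500 83.1 and 107.8, 26.3 and 16.2, and 85.3 and 120.5. In these 3 genes the mutant arrays were the low ones, and treated and untreated wild type did not differ past the threshold. By contrast the lipid transfer gene AT5G48490 was low in both treated groups, from 469.2 and 390.2 in the control to 41.8 and 56.0 in the mutant and 37.7 and 23.9 in the treated wild type (mutant -2.78, adjusted p = 0.000435). The chitinase ChiC (-1.79) also fell. The plant defensin gene PDF1.4 rose from 69.8 and 69.4 to 217.8 and 180.2 (1.32, adjusted p = 0.00530), and that rise was not called without control replicate 1 or 2. The falls numbered 7, 6, 6 and 6 without mutant replicates 1 and 2 and control replicates 1 and 2.

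Of 8 tested tubulin and actin genes 4 fell and 1 rose. TUB1, a beta-tubulin, read 137.7 and 151.4 in the control, 46.3 and 33.0 in the mutant and 76.0 and 77.4 in the treated wild type (mutant -1.54 ± 0.18 SE, adjusted p = 0.00167). TUB5 (-0.98), TUA6 (-0.84) and TUB6 (-0.63) fell, and TUA1 rose from 112.6 and 103.5 to 193.5 and 217.0 (0.83, adjusted p = 0.0188). The 4 falls were 3 without mutant replicate 1 and 1 in each of the other 3 fits, and the rise of TUA1 was not called in any of the 4. None of 12 tested cell division and histone genes passed in limma, with 3 at an unadjusted p below 0.05; the lowest was HTB2, a histone H2B gene (-0.75, adjusted p = 0.0538).

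Regulators and conjugating enzymes showed no common direction. Of 31 tested transcription factor genes 3 rose and 5 fell, a median of 0.03. These counts are not far from the shares over all probe sets, of which 8.51% rose and 10.7% fell. The ethylene response factor gene ORA47 fell from 98 and 87.8 to 22 and 17.4 (-1.61, adjusted p = 0.00104) and WRKY22 by 1.30 (adjusted p = 0.00448). STZ, a zinc finger repressor of stress responses, read 506.9 and 604.5 in the control, 223.5 and 183.5 in the mutant and 250.2 and 442.9 in the treated wild type (mutant -1.38, adjusted p = 0.0113). HYH, a bZIP factor of light signalling and a relative of HY5, rose from 107.3 and 84.9 to 206.2 and 223.0 (1.05, adjusted p = 0.00892). The 5 falls were 4 without either mutant array and 2 and 1 without control replicates 1 and 2, and the 3 rises were 1 without either mutant array and none without either control array. Of 28 tested UDP-glycosyltransferase genes 5 rose and 2 fell. UGT87A2 read 271.6 and 264.7 in the control, 436.1 and 695.4 in the mutant and 192.1 and 230.2 in the treated wild type, so that the mutant was highest (1.00 above the control, adjusted p = 0.0227, and 1.33 above the treated wild type, adjusted p = 0.0282). The flavonoid glucosyltransferase UGT78D2 rose by 0.92 (adjusted p = 0.0100) and the auxin glucosyltransferase IAGLU fell by 1.22 (adjusted p = 0.0264). UGT76B1 rose by 1.61 (adjusted p = 0.0466), with 66.8 on mutant replicate 1 and 229.4 on mutant replicate 2. The 5 rises were 3 without either mutant array and the 2 falls 0, IAGLU having adjusted p = 0.103 and 0.111, and no rise or fall was called without a control array; UGT87A2 lost its call without mutant replicate 2 (adjusted p = 0.112) and UGT76B1 likewise (adjusted p = 0.170).

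Of the remaining lists few members passed. Among 7 cold and dehydration genes the drought gene DI21 rose from 237.2 and 221.0 to 473.3 and 742.8 (1.32, adjusted p = 0.00782), and was not called without control replicate 1 or 2. COR15B, a chloroplast protein gene induced by cold, read 92.0 and 84.7 in the control and 100.3 and 114.7 in the mutant (0.24, adjusted p = 0.401) but 31.1 and 19.5 in the treated wild type (mutant minus treated wild type 1.59, adjusted p = 0.00622). Of 4 nitrogen and sulphur assimilation genes the ATP sulphurylase APS4 rose by 0.80 (adjusted p = 0.0148); without mutant replicate 1 or either control array the list had no call. Of 8 cytochrome P450 genes CYP71B28 fell by 0.64 (adjusted p = 0.0239), a call lost without any 1 of the 4 arrays (adjusted p from 0.0857 to 0.174).

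A few genes stood on opposite sides of the control in the treated genotypes or differed most between them; they were chosen for that difference, so their values are a description. AT5G42760 read 243.5 and 219.7 in the control, 421.5 and 454.6 in the mutant and 72.6 and 92.2 in the treated wild type, with log2 differences from the control of 0.88 (adjusted p = 0.0130) and -1.34 (adjusted p = 0.00204). It was the 1 named gene past the threshold in opposite directions in these comparisons, which share the control arrays. The call in the mutant was lost without any 1 of the 4 arrays (adjusted p from 0.0503 to 0.139). AT3G28270 read 477.5 and 273.8 in the control, 72.8 and 55.5 in the mutant and 1.3 and 1.0 in the treated wild type. AT1G21500 (601.8 and 539.7, 155.6 and 123.3, 28.8 and 19.1) and AT5G38980 (1529.4 and 1322.9, 390.0 and 407.3, 98.1 and 84.5) had the same order of groups as LHCB4.2. AT5G02890 was dim, at 56.8 and 55.2 in the control, 9.8 and 3.0 in the mutant and 77.2 and 72.2 in the treated wild type.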

How the data were processed

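Labelled total RNA of whole seedlings was hybridised to Affymetrix ATH1 arrays, 1 per sample. What the authors deposited is linear-scale intensity, made with MAS5 per the submitters' processing notes, which give no version. Of 22810 probe sets, 64 control probe sets were left out. Signals were transformed to log2(signal + 16), and probe sets with a mean at or above the 40th percentile (signal 28.2) were kept, 13648 in all. No detection calls were used, and the number of arrays limits the precision. A limma model (version 3.58.1, R 4.3.3) gave each group 1 mean, using all 6 arrays, with lmFit, eBayes and an intensity trend, which left 3 residual and 4.88 prior degrees of freedom. Two-sided p-values were adjusted over all tested probe sets (Benjamini-Hochberg), and the threshold was 0.05. The fit was also run on simulated arrays, which had equal spread in every group and no effect shared by replicate number. The real arrays had unequal spread, so that run does not test the fit under their conditions.

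Probe sets were named through the platform annotation, updated with RefSeq (TAIR10.1): 13513 name 1 gene, 503 several, and 8794 are unnamed here. Where several probe sets name a locus, the one brightest on average stands for it in a list. Named were the 12 largest rises and falls with 1 locus and no overlap between arrays, per list the 4 largest changes past the threshold or the smallest p, the 6 highest and 6 lowest against the treated wild type, and other members of the lists. The members and the lists were chosen with earlier results of these data known. Replicate numbers were not used to pair arrays: between control and mutant, the correlation of deviations of arrays with the same number was 0.08, between the treated groups it was 0.48, and 2 numbers cannot settle a pairing. Other constants, filters, scalings and fits, and leaving out each array, were tried as alternatives.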

Additional observations from a re-analysis of the deposited data

Results flagged for a closer look

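For 27 of the named genes that differed from the untreated wild type, the treated mutant also differed from the treated wild type. This was by a limma test of that difference itself (adjusted p below 0.05). Without untreated mutant seedlings, it cannot be told whether the response to norflurazon or the level before treatment differed between the genotypes. The log2 difference, mutant minus wild type, was positive for the antenna genes LHCB4.2 (2.09) and LHCB4.1 (1.20), the photosystem and ATP synthase genes PSAE-1 (2.40), PSAN (1.08), ATPC1 (0.85) and PSBY (1.29), the Calvin cycle genes SBPASE (1.40), PRK (1.45) and AT1G56190 (1.14), HPR of photorespiration (1.21), PORB of chlorophyll synthesis (1.66), AT1G51400 (1.22) and NdhN (1.05). It was also positive for UGT87A2 (1.33), AT3G28270 (2.22), AT5G42760 (2.21), AT1G21500 (1.96) and AT5G38980 (1.95). It was negative for AT2G43620 (-2.31), EXPA8 (-1.93), ECS1 (-1.48), AT5G44580 (-1.33), AT5G50335 (-1.71), AT4G12490 (-2.11), DRT100 (-2.06), AT5G02890 (-2.03) and AT4G32460 (-1.86). Some of these genes were named for that difference. Outside the tested probe sets, the one that matches 25S ribosomal RNA averaged 68.3 over the mutant arrays, above both control arrays.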

How the results depend on the processing

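Of 122 named probe sets past the threshold none changed direction in any of the 16 alternatives that tested it. This is no test of stability. Many were named on the condition that mutant and control arrays do not overlap. Without overlap, another constant or filter, or leaving out an array, cannot reverse the sign. A filter can remove a probe set: the one at the 60th percentile kept 106 of the 127 named. Where all 6 arrays or the 4 compared were kept, 99 of the 122 held their call in every alternative that tested them. With 1 array left out fewer held it. The 1162 rises became 759 with no filter on dim probe sets and 1950 with only the 4 compared arrays, and 88 to 1965 with 1 array left out; the 1463 falls became 364 to 2046 with 1 array left out. The 386 probe sets that differed between the treated genotypes became 120 with no filter, 113 with only their own arrays and 68 to 763 with 1 array left out, and the 2630 that differed between treated and untreated wild type became 621 to 3196 with 1 array left out. With the replicate number as a block there were 1511 rises, 1700 falls, 544 differences between the treated genotypes and 3216 between treated and untreated wild type, and 6 heat shock genes rose. The cause of these shifts was not tested, except that leaving out an array removes degrees of freedom. Arrays give no counting error, and dim signals, near or below 16, are known only as dim.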
